A study of Mus musculus with 6 samples.

Results

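Immediate early genes are transcribed within minutes of a stimulus, and some of them encode proteins that end the response. The 10 genes described here, of 32285 in the feature tables, were grouped as feedback and immediate early regulators. A part in ending the response was not tested for any of them. Dusp1, Dusp2 and Dusp6 encode dual-specificity phosphatases that inactivate MAP kinases. Zfp36, Zfp36l1 and Zfp36l2 encode zinc-finger proteins that bind AU-rich stretches of messenger RNA and recruit decay enzymes. Btg1 and Btg2 encode proteins that bind the deadenylase complex, and Ier2 and Ier5 encode nuclear regulators of transcription.

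Myeloid cells were sorted as CD45+ and CD11b+ from the whole brains of 3 male C57BL/6J mice aged 89 days, after cold Dounce homogenization, and profiled by droplet single-cell RNA sequencing of 3′ ends. Mouse 2 (DNC-INHIB) was perfused with actinomycin D and triptolide and its tissue was dissociated with these and anisomycin, drugs that block transcription and translation, while mice 1 and 3 (DNC-NONE) received none of them. Both the V3.0 and the V3.1 version of the 10X kit were run on every mouse, which gave 6 libraries on 1 flow cell. The libraries ask whether the kit version or the inhibitors change the transcripts recovered.

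The 6 libraries held 83133615 UMIs (unique molecular identifiers, each counting 1 captured transcript) in 29412 barcodes. In mice 1, 2 and 3 the V3.0 libraries held 15109090, 17006892 and 6275898 UMIs, and the V3.1 libraries held 11175790, 14693129 and 18872816. A barcode passed as a cell with at least 1000 and no more than 4000 genes, no more than 12000 UMIs and a mitochondrial share of no more than 15%. This left 19725 cells. Between 70.0% and 76.8% of barcodes passed in 5 libraries and 21.5% in the V3.0 library of mouse 3, whose median barcode held 809 UMIs against 3031 to 3409 in the others. Of the barcode sequences, 98 occurred in more than 1 library, and 38 did so among the passing cells.

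Cell types were gated by the number of marker genes with a UMI in a cell. Microglia needed at least 7 microglial markers such as P2ry12 and Sparc, neutrophils at least 7 such as S100a8 and S100a9, and border macrophages at least 3 such as Mrc1 and Pf4 with at most 5 microglial ones. The gates held 18812 microglia with a median of 3511 UMIs, 69 border macrophages with 3903 and 262 neutrophils with 5819.5. A separate gate held 190 monocytes, and 392 passing cells fell in no gate. The border macrophages were few, with 4 to 24 cells a library, and 34.8% of them came from the V3.0 library of mouse 2. Of them 88.4% had a UMI of Mrc1, 72.5% Pf4, 31.9% Ccr2 and 4.35% Lyve1. Their summed microglial markers lay between 2290 and 4296 CPM (counts scaled by the total UMIs of the type in a library), against 23913 to 26963 CPM in microglia.

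UMIs were summed per mouse and type, and the 3 types were compared within mice by edgeR's quasi-likelihood test with TMM scaling. A gene was called when its Benjamini-Hochberg adjusted p was below 0.05 and its log2 fold change lay beyond 0.58 in either direction. Each of the 3 type comparisons tested 7812 genes. Their spread was pooled over all genes, so the p-values do not carry a gene's own spread between mice. Between border macrophages and microglia 3 of the 10 genes were called, where 18.8% of all genes tested were. Between neutrophils and microglia 8 of the 10 were called (67.9% of all genes), and between border macrophages and neutrophils again 8 of the 10 (48.0% of all genes). The filter on low counts passed 9 of the 10 in these comparisons and left out Dusp2. Dusp1 and Ier2 reached its level outside microglia only and so had to differ from microglia, and both were also called against microglia in each comparison with no filter on low counts.

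Values in neutrophils depended on the scaling. S100a8 and S100a9 took 39.6% of neutrophil UMIs, against 0.0788% in microglia and 0.0570% in border macrophages, which lowers the CPM of every other neutrophil gene. TMM factors were 0.512 to 0.541 in neutrophils and 1.52 to 1.53 in microglia. With TMM the median log2 fold change of all genes tested was −0.32 for neutrophils against microglia, −0.17 for border macrophages against microglia and 0.08 for border macrophages against neutrophils. With scaling to total UMIs, an alternative chosen after seeing the data, these medians were −1.84, −0.49 and 1.28. In neutrophils against microglia 2321 of all genes were called higher and 2983 lower with TMM, and 945 and 5809 with total UMIs. A change of scaling moves all genes by about the same amount, and subtracting their median takes this out. Measured in that way, Zfp36 in neutrophils against microglia stood at 1.81 with either scaling and 1.82 with DESeq2. The likeness between scalings follows from that step and is no test of them. The uncalled values of Zfp36l1, Zfp36l2 and Btg1 between border macrophages and microglia turned negative with total UMIs, and other directions that turn are given with each gene.

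**Figure D1:**
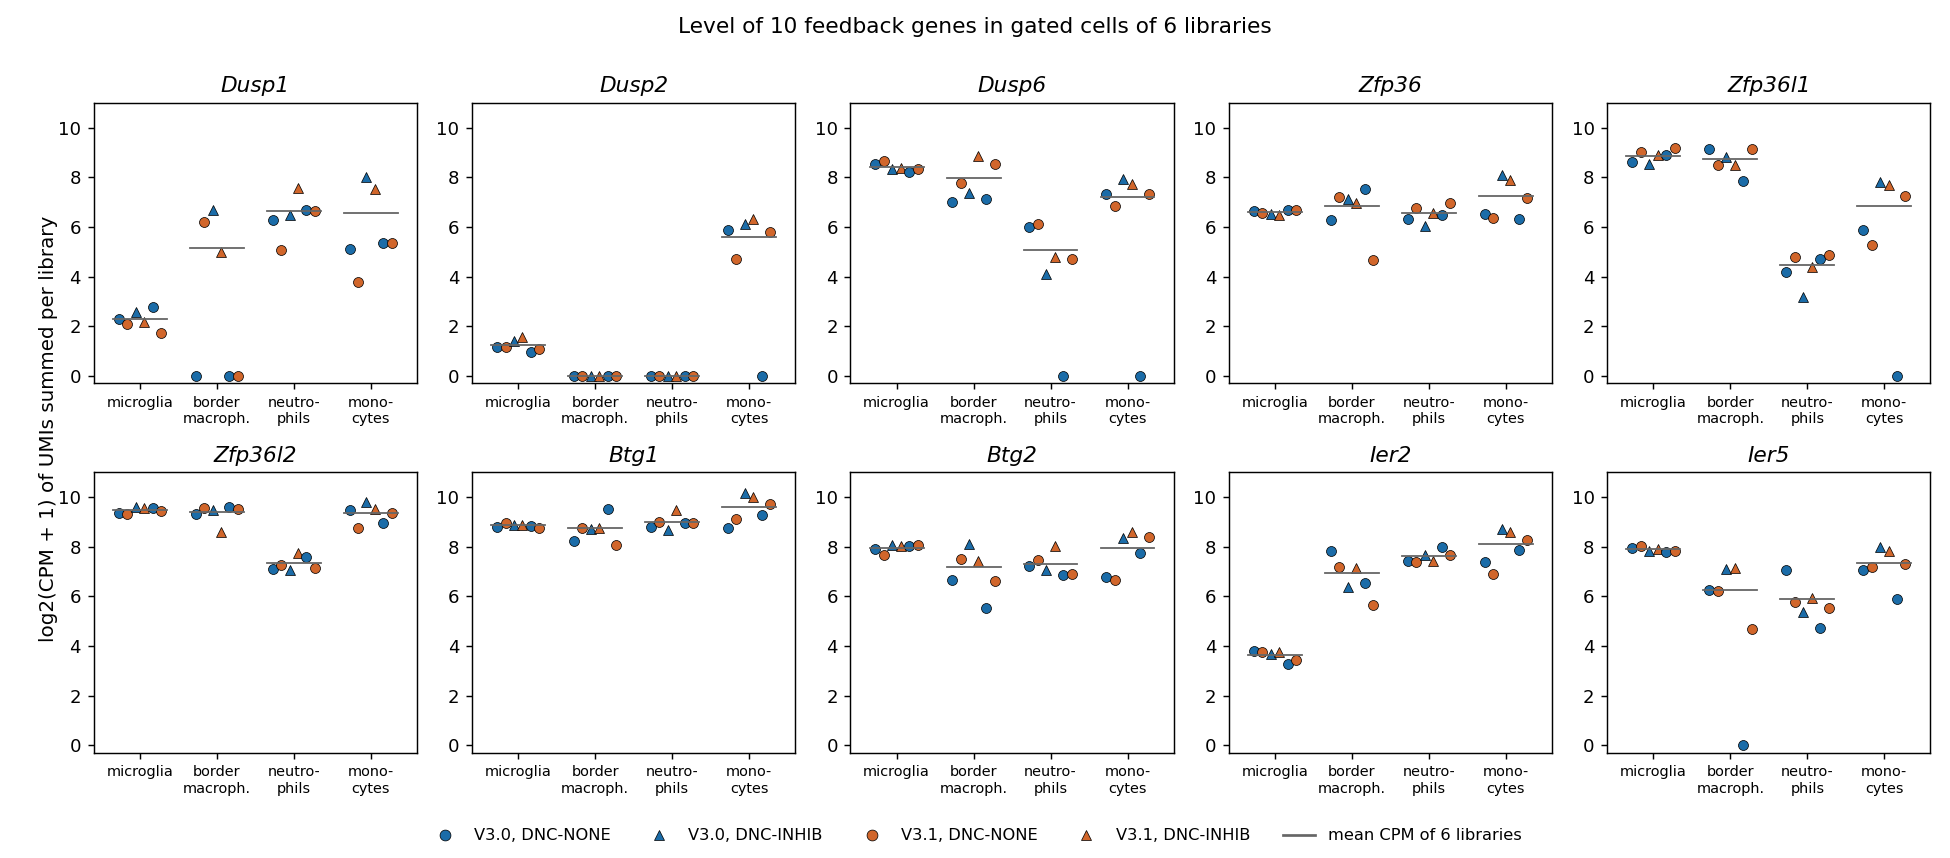
Level of each of the 10 genes, as log2 of CPM plus a pseudocount of 1, in the gated types, with 1 point per library, colours for the kit, triangles for DNC-INHIB and a line at the mean CPM. Microglial libraries lay between 2.27 and 5.91 CPM for Dusp1 and between 8.71 and 12.97 CPM for Ier2, below every neutrophil library.

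Among the phosphatases, Dusp1 was lowest in microglia, Dusp6 was lowest in neutrophils, and Dusp2 had no UMI in either border macrophages or neutrophils. Dusp1 (ENSMUSG00000024190, GRCm38 chr17:26505590-26562128, minus strand) had 2.27 CPM in the lowest microglial library, 3.65 at the median and 5.91 in the highest. In neutrophils these values were 32.7, 93.5 and 189 CPM. In border macrophages they were 0, 15.6 and 101 CPM. Every neutrophil library stood above every microglial one, whereas border macrophages overlapped both types, with no UMI in 3 libraries and 11 of their 15 UMIs in the V3.0 library of mouse 2. Dusp1 was higher in neutrophils than in microglia in 3 of 3 mice, by 6.22 ± 0.26 on the log2 scale (SE; 74.3-fold). It passed the filter by its UMIs outside microglia and so had to differ from them, and no p-value against microglia is given. It was higher in border macrophages than in microglia in 2 of 3 mice, by 3.90 ± 0.62, a call that was lost without mouse 2 at 2.54 ± 1.62. Mice 1, 2 and 3 had 2, 13 and 0 Dusp1 UMIs in these cells. Border macrophages were below neutrophils in 3 of 3 mice, by −2.32 ± 0.40 (edgeR adjusted p = 7.30e-08). The Dusp1 model overlaps a processed pseudogene and an intronic transcript on its own strand, so its count may have been split or shared.

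Dusp6 (ENSMUSG00000019960, chr10:99263231-99267489, plus strand) had 299.7, 332 and 399 CPM in the lowest, median and highest microglial library. In border macrophages it had 127, 193 and 469 CPM, and in neutrophils 0, 26.0 and 68.3 CPM. Neutrophils stood below both other types in every library, and border macrophages overlapped microglia. Dusp6 was lower in neutrophils than in microglia in 3 of 3 mice, by −1.69 ± 0.18 (edgeR adjusted p = 3.59e-19), and higher in border macrophages than in neutrophils, by 1.57 ± 0.28 (edgeR adjusted p = 7.75e-08). It was not called between border macrophages and microglia at −0.12 ± 0.19 (edgeR adjusted p = 0.771). That value differed between kits. From the V3.0 libraries alone it was −0.94 and called, and from the V3.1 libraries alone it was 0.30 and not called. The difference from neutrophils also lost its call in the V3.0 libraries alone, at 1.04.

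Dusp2 (ENSMUSG00000027368, chr2:127336159-127338376, plus strand) had 0.934, 1.25 and 1.99 CPM in the lowest, median and highest microglial library, from 96 UMIs in all. Its UMIs lay in 89 of 18812 microglia, 0.473% (exact 95% interval 0.380 to 0.582, counting error only). The neuronal gene Snap25, used to gauge free RNA, had a UMI in 0.202% of microglia (0.143 to 0.277). No Dusp2 UMI was seen in 69 border macrophages or 262 neutrophils, which allows up to 4.35% and 1.145% of cells with a UMI when 3 cells are taken as the limit of a count of 0 (the exact intervals reach 5.21% and 1.398%). At this depth microglia could not be ranked against either type, since their 1.41 CPM lay below the levels of 9.95 and 1.86 CPM that 3 UMIs would give in the pooled border macrophages and neutrophils.

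The 3 Zfp36 genes were detected in every type, and their order differed between them. Zfp36 (ENSMUSG00000044786, chr7:28376784-28380253, minus strand) had 87.6, 97.3 and 101 CPM in the lowest, median and highest microglial library. In border macrophages it had 24.6, 132 and 183 CPM, and in neutrophils 64.1, 90.8 and 124 CPM, so all 3 types overlapped. With TMM scaling it was higher in neutrophils than in microglia by 1.497 ± 0.18 (edgeR adjusted p = 1.42e-16), but with scaling to total UMIs the value was −0.033 and not called. It was lower in border macrophages than in neutrophils by −0.90 ± 0.30 (edgeR adjusted p = 0.00666). That value turned to 0.32 with total UMIs, and the call was lost there, without mouse 3 (−0.66) and in the V3.0 libraries alone (−0.34). Border macrophages and microglia were not told apart at 0.60 ± 0.30 (edgeR adjusted p = 0.165).

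Zfp36l1 (ENSMUSG00000021127, chr12:80107754-80113013, minus strand) had 371, 476 and 581 CPM in the lowest, median and highest microglial library. In border macrophages it had 229, 409 and 567 CPM, and in neutrophils 8.01, 22.6 and 28.3 CPM. Neutrophils stood apart in every library, while the other types overlapped. It was lower in neutrophils than in microglia in 3 of 3 mice, by −2.97 ± 0.21 (edgeR adjusted p = 5.57e-46), and higher in border macrophages than in neutrophils by 3.22 ± 0.27 (edgeR adjusted p = 3.73e-31). Against microglia, border macrophages stood at 0.25 and were not called (edgeR adjusted p = 0.332). Both calls were made under each of the 13 alternatives of tool, filter, gate, mice, kit, block and scaling.

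Zfp36l2 (ENSMUSG00000045817, chr17:84183931-84187947, minus strand) had 643, 724 and 769 CPM in the lowest, median and highest microglial library. It had 391, 729 and 779 CPM in border macrophages and 132, 146 and 215 CPM in neutrophils. Neutrophils again stood below both types in every library, and border macrophages overlapped microglia. The gene was lower in neutrophils than in microglia in 3 of 3 mice, by −0.66 ± 0.12 (edgeR adjusted p = 2.67e-07), and stood under the fold threshold, at −0.29, with a looser cell filter (at least 500 genes and at most 25% mitochondrial UMIs). Border macrophages were above neutrophils by 0.84 ± 0.17 (edgeR adjusted p = 5.41e-06), a call lost with that filter (0.46) and in the V3.1 libraries alone (0.60). Against microglia they stood at 0.18 and were not called (edgeR adjusted p = 0.442).

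Btg1 and Btg2 were called higher in neutrophils than in both other types with TMM scaling, and these calls depended on the scaling. Btg1 (ENSMUSG00000036478, chr10:96617006-96622809, plus strand) had 435, 465 and 501 CPM in the lowest, median and highest microglial library. It had 271, 426 and 733 CPM in border macrophages and 408, 499 and 712 CPM in neutrophils, with overlap between all types. Btg1 was higher in neutrophils than in microglia by 1.67 ± 0.10 (3.18-fold; edgeR adjusted p = 8.50e-60) and lower in border macrophages than in neutrophils by −1.55 ± 0.16 (edgeR adjusted p = 2.04e-20). With total UMIs these were 0.14 and −0.34, neither called. Border macrophages differed from microglia by 0.12, not called (edgeR adjusted p = 0.719).

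Btg2 (ENSMUSG00000020423, chr1:134075170-134079120, minus strand) had 204, 261 and 267 CPM in the lowest, median and highest microglial library. It had 45.8, 137 and 277 CPM in border macrophages and 114, 141 and 262 CPM in neutrophils, and the types overlapped. In CPM per mouse, neutrophils stood below microglia in 3 of 3 mice (165, 203 and 118 against 224, 265 and 265 CPM). With TMM scaling they stood above by 0.89 ± 0.13 (edgeR adjusted p = 3.89e-11), and with total UMIs below by −0.64, called in both directions. In the V3.0 libraries alone the TMM value was 0.42 and not called. Border macrophages were lower than neutrophils by −1.11 ± 0.23 (edgeR adjusted p = 6.41e-06), which was −0.66 and not called in the V3.0 libraries alone and turned to 0.089 with total UMIs. Against microglia they stood at −0.23, not called (edgeR adjusted p = 0.561).

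Ier2 was low in microglia, and Ier5 had more CPM there than in border macrophages or neutrophils. Ier2 (ENSMUSG00000053560, chr8:84661331-84662852, minus strand) had 8.71, 12.2 and 12.97 CPM in the lowest, median and highest microglial library. It had 49.3, 116 and 228 CPM in border macrophages and 166, 187 and 254 CPM in neutrophils. Every library of these types stood above every microglial library, and border macrophages overlapped neutrophils. Ier2 was higher than in microglia in 3 of 3 mice, by 3.63 ± 0.38 in border macrophages (12.4-fold) and by 5.52 ± 0.17 in neutrophils (45.8-fold). It passed the filter by its UMIs outside microglia and so had to differ from them, and no p-value is given for these values. With total UMIs they were 3.32 and 3.996. Border macrophages were lower than neutrophils by −1.88 ± 0.27 (edgeR adjusted p = 2.36e-11), though in CPM not in mouse 1, where they had 195 against 170, and with total UMIs the value was −0.67 and not called.

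Ier5 (ENSMUSG00000056708, chr1:155096361-155099636, minus strand) had 223, 235 and 262 CPM in the lowest, median and highest microglial library. It had 0, 74.6 and 141 CPM in border macrophages and 25.4, 49.3 and 132 CPM in neutrophils. Every microglial library stood above every library of border macrophages and neutrophils, which overlapped each other. Ier5 was lower in border macrophages than in microglia in 3 of 3 mice, by −0.98 ± 0.28 (edgeR adjusted p = 0.00352). The call was lost with DESeq2 (−1.15), without mouse 3 (−0.66), in the V3.0 libraries alone (−0.96) and with a border gate of at most 3 microglial markers (−0.96). In neutrophils the value against microglia was −0.44 ± 0.18, under the fold threshold (edgeR adjusted p = 0.0217). It was called lower with no filter on low counts (−0.60), a gate asking for 2 more markers (−0.66), without mouse 1 (−0.87), in the V3.1 libraries alone (−0.86) and with total UMIs (−1.97). Less the median of all genes tested, it stood at −0.13 both with TMM and with total UMIs. Border macrophages and neutrophils were not called apart at −0.53 (edgeR adjusted p = 0.174), but were without mouse 2 (−1.80) and with the looser cell filter (−0.99), and with total UMIs the value was 0.69, not called.

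**Figure D2:**
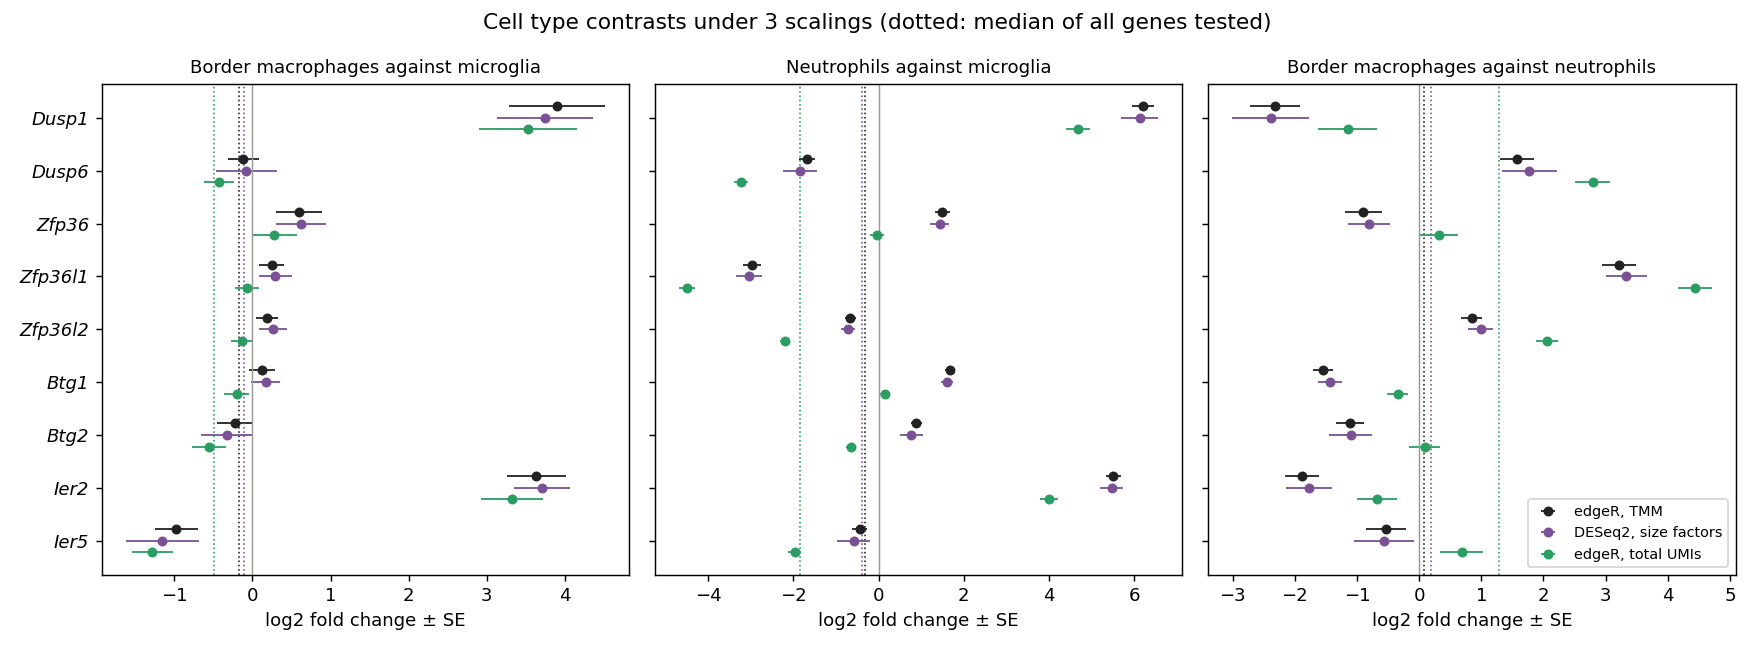
Log2 fold change with SE of the 9 genes tested in the 3 type comparisons, under TMM, DESeq2 and total-UMI scaling, with dotted lines at the median of all genes tested. For neutrophils against microglia Btg2 ran from 0.89 with TMM to −0.64 with total UMIs, whereas Dusp1 ran from 6.22 to 4.68 and Ier2 from 5.52 to 3.996.

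The share of cells with a UMI followed the levels for the genes with large differences. Dusp1 had a UMI in 1.14% of microglia, 14.5% of border macrophages and 27.1% of neutrophils, with exact 95% intervals of 0.996 to 1.31, 7.17 to 25.04 and 21.8 to 32.9 that cover counting error only. Ier2 had one in 3.95%, 36.2% and 63.7%. Beside these, Snap25 had a UMI in 0.202% of microglia at a median of 3511 UMIs a cell and in no border macrophage or neutrophil, at medians of 3903 and 5819.5. After each cell was thinned to 2000 UMIs, the Dusp1 shares were 0.653%, 11.6% and 18.7% and the Ier2 shares 2.31%, 23.2% and 34.0%, with 736 shallower microglia left out. In the other direction, Zfp36l1 had a UMI in 72.1% of microglia, 75.4% of border macrophages and 9.92% of neutrophils, and Dusp6 in 65.5%, 62.3% and 19.1%. Shares of Btg1 hardly differed, at 76.1%, 76.8% and 77.1%, but thinning left 58.3%, 43.5% and 52.3%. Thinning made total UMIs equal, of which S100a8 and S100a9 took 39.6% in neutrophils. Fewer were left there for other genes, which lowers their thinned shares.

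**Figure D3:**
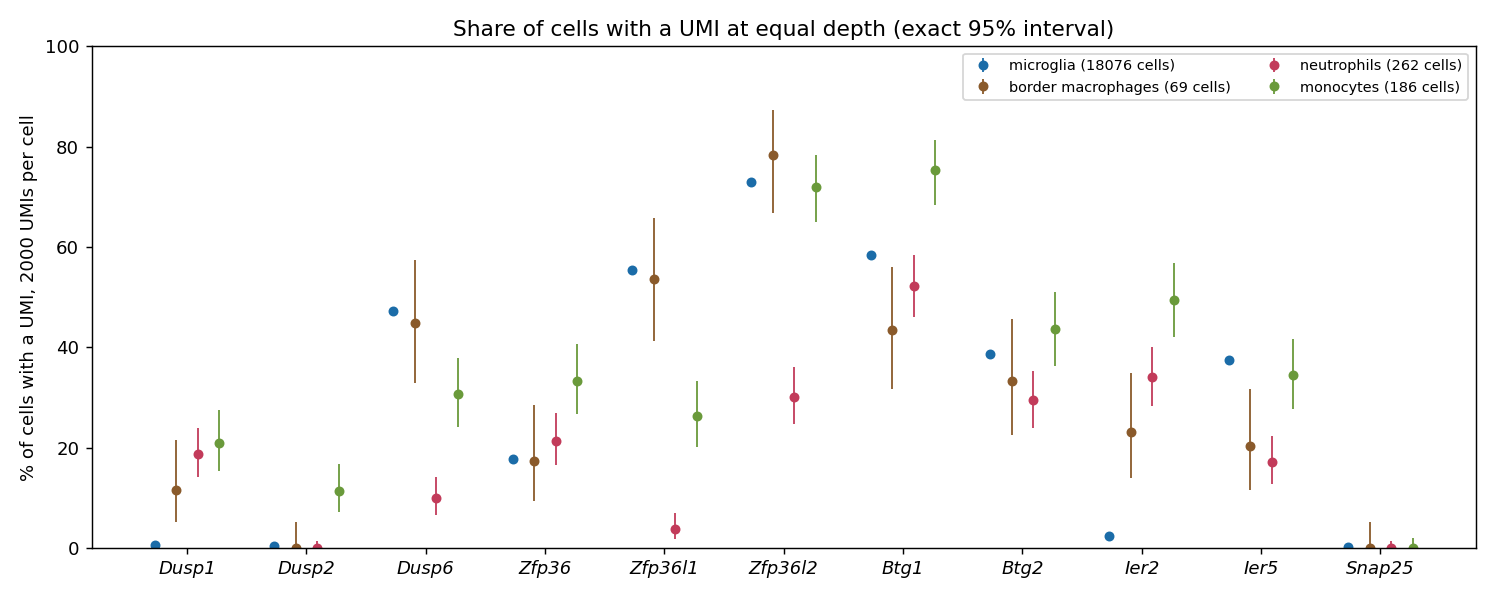
Percent of pooled cells of each type with a UMI of each gene after thinning to 2000 UMIs a cell, with exact 95% Clopper-Pearson intervals, and Snap25 as a gauge of free RNA. In neutrophils S100a8 and S100a9 took 39.6% of UMIs, which lowers the shares of other genes there. Ier2 was seen in 2.31% of microglia, 23.2% of border macrophages and 34.0% of neutrophils, and Snap25 in 0.094%, 0 and 0.

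Dusp1 was seen more often in neutrophils that had a Fos UMI, in 37 of 65 (56.9%), than in those without, in 34 of 197 (17.3%), although the former had fewer UMIs (medians of 4898 and 6133). Mouse 2 gave 38 of the 65, but the same held within each mouse, with 54.5%, 55.3% and 62.5% against 13.8%, 19.6% and 21.2% in mice 1, 2 and 3. Over all mice, Ier2 was seen in 67.7% of neutrophils with a Fos UMI and in 62.4% of those without.

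Lists of related genes set the 10 beside their pathways. A listed gene could pass the filter on low counts by its UMIs in 1 type alone, and such a gene had to differ from a type where it is low. In the type comparisons, the count of calls and the median of a list are therefore given only where every gene tested reached the filter's level in both types. This was so for the MAP kinases between border macrophages and microglia. A test of a single gene is given where the gene reached that level in both types, and levels are given for others.

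The ERK feedback list of 14 phosphatases and inhibitors other than those above had 6 genes tested by type. They had between 0 and 4 UMIs each in all neutrophils and passed the filter by their UMIs in the other types. Dusp7, Spred1 and Dusp3 had 148, 96.2 and 66.3 CPM in pooled microglia and 43.1, 102.8 and 62.99 CPM in pooled border macrophages, with 4, 2 and 1 UMIs in all neutrophils. Between border macrophages and microglia Dusp22 was called higher at 1.43 ± 0.40 (edgeR adjusted p = 0.00307) and Dusp7 lower at −1.42 ± 0.38 (edgeR adjusted p = 0.00173). The call of Dusp7 was lost with DESeq2.

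Of the 6 MAP kinases 1 was called between border macrophages and microglia, where 18.8% of all genes tested were. This was Mapkapk2, higher by 1.09 ± 0.40 (edgeR adjusted p = 0.0390; list median 0.13), and 0 kinases were called with total UMIs. In neutrophils against microglia Mapk3 stood at 1.75 ± 0.15 (edgeR adjusted p = 3.80e-29) and Mapkapk2 at 1.86 ± 0.24 (edgeR adjusted p = 2.28e-14) with TMM. With total UMIs, which lowered the median of all genes there, neither was called higher. Mapk3 was lower in border macrophages than in neutrophils by −1.70 ± 0.28 (edgeR adjusted p = 8.05e-09), and was not called lower with total UMIs. Of 15 RNA decay partners tested, 11 reached the filter's level in both neutrophils and microglia. Tob1 reached it in neutrophils alone. It had 86.4, 96.1 and 80.9 CPM in the neutrophils of mice 1, 2 and 3, 3.27, 4.58 and 4.15 CPM in their microglia, and no UMI in border macrophages. Cnot2 went the other way, with 16.0, 12.7 and 20.8 CPM in their neutrophils and 102, 104 and 99.2 CPM in their microglia.

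Of the cytokine and other transcripts known as targets of AU-rich decay, 6 were tested by type, and none of them reached the filter's level in both microglia and another type. Il1b had 33.6, 241 and 134 CPM in the neutrophils of mice 1, 2 and 3, 14.97, 122 and 32.0 CPM in their border macrophages, from 1, 21 and 2 UMIs, and 1.75, 7.56 and 3.99 CPM in their microglia. All 26 Ccl4 UMIs of border macrophages came from mouse 2. Ier3, tested as the other IER gene, had 43.2, 50.8 and 39.3 CPM in neutrophils, 44.9, 63.8 and 16.0 CPM in border macrophages and 9.45, 9.89 and 9.11 CPM in microglia. Its difference between border macrophages and neutrophils, −1.09 ± 0.46 (edgeR adjusted p = 0.0404), was not called with DESeq2 or total UMIs.

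Of 9 AP-1 and KLF transcription factors tested, 4 reached the filter's level in both neutrophils and microglia and 5 did so in both border macrophages and microglia. Klf2 was higher than in microglia by 3.48 ± 0.16 in neutrophils (edgeR adjusted p = 2.18e-105) and by 3.19 ± 0.22 in border macrophages (edgeR adjusted p = 5.64e-45), with 539, 412 and 32.0 CPM in the border macrophages of mice 1, 2 and 3 beside 33.2, 64.5 and 39.5 CPM in their microglia. Fos had 25.6, 203 and 57.8 CPM in neutrophils and 0.627, 1.07 and 0.614 CPM in microglia, and Jun went from 170 CPM in pooled microglia to 3.73 in neutrophils. From the study's list of genes induced ex vivo 21 were taken, without Dusp1, Zfp36 and Ier5, which are among the 10, and without 1 more gene left out beforehand. Of these 21, 18 were tested by type, and 8 reached the filter's level in both types of each comparison with microglia. Rhob was lower than in microglia by −2.03 ± 0.18 in border macrophages (edgeR adjusted p = 6.98e-27) and by −2.59 ± 0.15 in neutrophils (edgeR adjusted p = 2.24e-65). Klf2, which was higher in both types as given above, is also on this list.

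The genes whose profile over the 9 sums of 3 mice and 3 types lay nearest to each of the 10 were found among 7812 genes by Pearson's r of log2 CPM. The sums share mice and are few, so r describes how the types are ordered. Zfp36l1 lay nearest to Zeb2 (r = 0.998) and Maf (0.997), and Zfp36l2 to Runx1 and Tubb2a (0.997 each). Dusp1 lay nearest to Usp5 (0.989), Ier2 to Adam19 (0.991), Dusp6 to Ddrgk1 (0.996) and Ier5 to Selenot (0.995). The highest r was 0.956 for Btg1 (Riok3), 0.975 for Btg2 (Lsm14a) and 0.869 for Zfp36 (Mthfsl).

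To compare the kits, UMIs of microglia were summed per library and 3 V3.1 libraries were compared with 3 V3.0 libraries. All 10 genes were tested and 0 were called by edgeR, where 3.06% of 12007 genes were. At an unadjusted p under 0.05 edgeR counted 2 of the 10 and DESeq2 also 2, with 0 called by DESeq2, where edgeR counted 3536 and DESeq2 2724 of all 12007 genes. Dusp1 had 3.83, 4.96 and 5.91 CPM in the V3.0 libraries and 3.25, 3.48 and 2.27 CPM in the V3.1 libraries of mice 1, 2 and 3. The groups did not overlap and V3.1 was lower in 3 of 3 mice, by −0.65 ± 0.24 (edgeR adjusted p = 0.0906). With the mouse as a replicate block the value was −0.60 ± 0.23 and was called (edgeR adjusted p = 0.0458). Zfp36l1 had 397, 371 and 474 CPM with V3.0 and 513, 478 and 581 CPM with V3.1. Its groups did not overlap either, and V3.1 was higher in 3 of 3 mice by 0.36 ± 0.09 (1.29-fold; edgeR adjusted p = 0.0221), under the fold threshold. The other 8 had log2 fold changes between −0.05 for Zfp36l2 and 0.09 for Dusp6, and none had an edgeR adjusted p below 0.438.

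Without a test, the step from V3.0 to V3.1 was read in each mouse and type. In all 3 types Dusp6 had more CPM in the V3.1 than in the V3.0 library of each of the 3 mice. In border macrophages its V3.0 libraries had 127, 137 and 166 CPM and its V3.1 libraries 219, 370 and 469 CPM, without overlap. In neutrophils the V3.1 library stood above the V3.0 library of each mouse for Zfp36, Zfp36l1, Btg1 and Btg2, and below it for Ier2. In microglia the V3.1 library also stood above the V3.0 library of each mouse for Dusp2 and Ier5, and below it for Zfp36l2. These were picked from 30 pairs of gene and type after their values were seen. The share of all genes that stepped alike in each mouse was not counted. Some steps rest on few UMIs, as with 2 UMIs of Zfp36l1 in the 14 neutrophils of the V3.0 library of mouse 3. In microglia no list had a call but the ex vivo list, where edgeR called 1 of 21, Hist1h2bc, higher with V3.1 by 0.64 ± 0.10 (edgeR adjusted p = 0.00137), and DESeq2 called 2. List medians lay between −0.15 for the MAP kinases and 0.15 for AP-1 and KLF factors, beside 0.00 for all genes tested. Unadjusted p fell under 0.05 by edgeR for 1 of 10 ERK feedback genes, 3 of 6 MAP kinases, 3 of 17 RNA decay partners, 2 of 9 AU-rich targets, 3 of 9 AP-1 and KLF factors, 0 of 2 IER genes and 6 of 21 ex vivo genes, where it did so for 3536 of all 12007. DESeq2 gave the same counts but for 2 of 6 MAP kinases, where it counted 2724 of all genes.

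The inhibitor comparison set 1 DNC-INHIB mouse against 2 DNC-NONE mice, so its spread came from mice 1 and 3 and the DNC-INHIB mouse was assumed to vary like them. In microglia all 10 genes were tested and 0 were called by edgeR, where 0.798% of 13151 genes were. At an unadjusted p under 0.05 edgeR counted 1 of the 10 and DESeq2 0, with 0 called by DESeq2. Mouse 2 lay outside the range of mice 1 and 3 for Dusp1 at 4.28 CPM (3.58 and 2.87 in mice 1 and 3), though not in its V3.0 library, and for Dusp2 at 1.80 CPM (1.25 and 1.08). It did so also for Zfp36l1 at 420 CPM (446 and 563), Zfp36 at 90.1 CPM (97.8 and 101) and Zfp36l2 at 759.8 CPM (655 and 708). For Btg2 it had 265 CPM (224 and 265). It lay inside that range for Dusp6, Btg1, Ier2 and Ier5, at 331, 471, 12.2 and 232 CPM. When the order of the mice is random, a given mouse lies outside the range of the other 2 more often than inside. How many of all genes did so was not counted, so these positions are no result about the 10 genes. The log2 values for DNC-INHIB were −0.25 ± 0.10 for Zfp36l1 (edgeR adjusted p = 0.368), 0.42 ± 0.26 for Dusp1 (edgeR adjusted p = 0.814) and 0.63 ± 0.42 for Dusp2 (edgeR adjusted p = 0.840). The others lay between −0.13 for Zfp36 and 0.17 for Zfp36l2.

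The calls made for the lists in microglia between DNC-INHIB and DNC-NONE lay in 3 lists, beside 0.798% of all genes called and 1009 of 13151 at an unadjusted p under 0.05 by edgeR and 197 by DESeq2. The spread of this fit was pooled over all genes, with 1 residual degree of freedom, so its p-values do not carry a gene's own difference between the DNC-NONE mice. The log2 medians of 10 ERK feedback genes, 6 MAP kinases, 17 RNA decay partners and 2 IER genes were −0.10, 0.08, −0.01 and −0.14. Of 9 AU-rich targets, 8 reached the filter's level in both groups. Il1b was higher in DNC-INHIB by 1.43 ± 0.23 (edgeR adjusted p = 2.77e-07), at 7.56 CPM against 1.75 and 3.99. The summed neutrophil markers in these microglia ran from 740 to 1470 CPM over the libraries, and the part of free neutrophil RNA in the Il1b value was not tested. Vegfa, which reached the filter's level in DNC-NONE alone, had 5 UMIs against 39 and 41. DESeq2 called neither. Of 11 AP-1 and KLF factors, 10 reached that level in both groups, and Klf2 was higher by 0.84 ± 0.11 (edgeR adjusted p = 1.56e-12), at 64.5 CPM against 33.2 and 39.5. The median of the 21 ex vivo genes was 0.00. EdgeR called 3 of them higher and 1 lower, and DESeq2 called 1. Klf2, given above, is also on this list and was among the higher ones. Hspa1a, another of them, had 18.9 CPM against 0.940 and 8.55, so the DNC-NONE mice differed more from each other, as a ratio, than mouse 2 did from mouse 3. The lower one was Hist2h2aa1, named after its values were seen, at 1.34 CPM against 4.34 and 3.69.

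In border macrophages the inhibitor comparison had 16, 39 and 14 cells in mice 1, 2 and 3. Of the 10 genes 6 passed the filter and 0 were called by edgeR, where 0.163% of 1226 genes were. At an unadjusted p under 0.05 edgeR counted 1 of the 6 and DESeq2 0, with 0 called by DESeq2. Btg2 had 238 CPM in DNC-INHIB against 135 and 80.1 CPM, 1.14 ± 0.53 on the log2 scale (edgeR adjusted p = 0.9985). Dusp6 had 278 CPM against 165 and 288, Zfp36l1 418 against 479 and 449, and Zfp36l2 597 against 689 and 753. Btg1 had 423 CPM against 359 and 433, and Ier2 had 104 against 195 and 64.1. These values lay between −0.30 for Ier2 and 0.31 for Dusp6, all at an edgeR adjusted p of 0.9985. Btg2 reached the level of the filter in DNC-INHIB alone and Ier2 in DNC-NONE alone. The 4 genes left untested had 13, 0, 23 and 24 UMIs in DNC-INHIB for Dusp1, Dusp2, Zfp36 and Ier5, against 2, 0, 7 and 5 in mouse 1 and 0, 0, 5 and 1 in mouse 3. No list gene was called by edgeR or DESeq2. At an unadjusted p under 0.05 edgeR counted 1 of 8 ex vivo genes, and DESeq2 counted 1 of these and 1 of 2 AU-rich targets. Of the lists, 5 AP-1 and KLF factors were also tested, and 1 gene of each other list but the IER genes, which had none. The 2 genes called in all were Gh, with 0, 50 and 0 UMIs in mice 1, 2 and 3, and Cxcl16, with 9, 76 and 6. Both reached the filter's level in DNC-INHIB alone and so had to differ. They are named because they were the calls made, and were chosen after their values were seen.

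In neutrophils, where no inhibitor test was made, most levels of the DNC-INHIB mouse did not stand apart in the same way with both kits. Dusp1 had 88.1 CPM in its V3.0 library, between the 76.4 and 102 of mice 1 and 3, and 189 CPM in its V3.1 library, above their 32.7 and 98.9. Btg1 was lowest with V3.0, at 408 CPM against 448 and 495, and highest with V3.1, at 712 against 514 and 503. Zfp36l2 did likewise, at 132 CPM against 139 and 190.4 and at 215 against 151 and 141. Btg2 lay between mice 1 and 3 with V3.0, at 132 CPM against 149 and 114, and was highest with V3.1, at 262 against 178 and 119. Zfp36 and Zfp36l1 were lowest in DNC-INHIB with both kits. Summed over kits they had 79.8 CPM against 94.4 and 118, and 14.5 CPM against 22.4 and 27.7. Summed in that way Dusp6, Ier2 and Ier5 lay between the DNC-NONE mice at 21.8, 185 and 50.8 CPM. The neutrophils of DNC-INHIB also differed in their own markers. Of these, Retnlg had 14752 CPM against 31029 and 23772, and Csf3r, Cxcr2, Mmp8, Mmp9 and S100a9 were also lowest there. Ngp had 30817 CPM against 22469 and 24042, and Ltf, Camp and Ly6g were also highest there, with S100a8 between the others. The part of this difference in the levels above was not tested.

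The 3′ untranslated regions (UTRs) of the same genes were searched for TATTTAT, the DNA form of the AU-rich heptamer that Zfp36 proteins bind, because such sites mark the transcripts on which this family acts. In the GENCODE models for GRCm38 the heptamer occurred in 26.1% of 20690 genes with a 3′ UTR, whose median length was 850 bases, and the nonamer TTATTTATT in 7.14%. Dusp1, Zfp36, Zfp36l1 and Zfp36l2 each held 3 heptamers, in UTRs of 690, 774, 1835 and 1822 bases, and Dusp2 and Btg2 held 1 each, in UTRs of 581 and 2199 bases. Dusp6, Btg1, Ier2 and Ier5 held none, in UTRs of 1189, 4166, 755 and 2143 bases. The nonamer occurred 2 times in Dusp1 and 1 time in each Zfp36 gene. A match is a description of sequence and shows no binding. One site of Dusp1 (chr17:26505871-26505897, minus strand), of Zfp36 (chr7:28376952-28376978, minus strand), of Zfp36l1 (chr12:80108168-80108194, minus strand) and of Btg2 (chr1:134077250-134077276, minus strand) read as follows.
Dusp1: tttttaccttTATTTATttttgtgtag
Zfp36: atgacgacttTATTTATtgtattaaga
Zfp36l1: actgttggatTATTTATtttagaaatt
Btg2: aatgaagagcTATTTATacatgttttt

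Promoters were read from RefSeq (GRCm38.p6) as 300 bases, from 250 before to 50 after the transcription start, for 8 of the 10 genes, without Ier2 and Zfp36l2. They were searched for sites of factors that drive immediate early genes. The cyclic AMP response element TGACGTCA occurred in 1.88% of 27025 promoters and in those of Dusp1 (chr17:26508598-26508625, minus strand) and Btg2 (chr1:134079304-134079331, minus strand). Its core TGACG or the reverse complement occurred in 21.0% of promoters and in those of Btg1, Btg2, Dusp1 and Dusp2. The AP-1 site TGANTCA (N for any base) occurred in 7.93% and in Zfp36l1, the ETS site CCGGAA in 15.2% and in Zfp36, and the CArG box in 1.57% and in Zfp36. The Sp1 site GGGCGG occurred in 35.9% of promoters and in 6 of the 8, and TATAAA in 14.2% and in Btg1 and Zfp36l1. The response elements of Dusp1 and Btg2 are shown because both genes carry the complete site.
Dusp1: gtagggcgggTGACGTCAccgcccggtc
Btg2: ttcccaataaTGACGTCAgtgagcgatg

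Several limits apply to these values. With 1 DNC-INHIB mouse, the inhibitors and the mouse cannot be told apart. Border macrophages numbered 69, carried microglial and Ccr2 transcripts, and drew on mouse 2 for more than any other mouse, so their values rest on few UMIs. Doublets were not called. The counts are of 3′ ends and were not compared between genes. Absolute levels in neutrophils could not be set apart from the share taken by S100a8 and S100a9. With total UMIs the directions of Zfp36 and Btg2 in neutrophils turned and the calls of Btg1 were lost. Ier2 then lost its call between border macrophages and neutrophils (−0.67), and Ier5 gained one between neutrophils and microglia (−1.97). Sorting and the marker gates decide which cells entered each type.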

How the data were processed

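The deposited values were counts: the authors gave, for 6 libraries, the UMIs that Cell Ranger 5.0.0 counted per gene and called barcode on GRCm38 (mm10), without normalization. The submitters' processing notes also name bcl2fastq and Seurat. From these counts, cells were filtered and gated by marker genes as the report states. Doublets were not called, since the upper limits on genes and UMIs and the limits on markers of other types remove only some of them. UMIs were summed per library, or per mouse and type, and compared with edgeR 4.0.16 in R 4.3.3 (filterByExpr, TMM, quasi-likelihood test, two-sided, Benjamini-Hochberg over all genes tested), and DESeq2 1.42.0 was the alternative tool. The type comparisons carried the mouse as a block, and the inhibitor comparisons had 1 residual degree of freedom. In both, the spread was pooled over all genes. Python 3.11.15 with numpy 2.4.6, pandas 2.3.3, scipy 1.17.1 and matplotlib 3.10.9 did the rest. The kit, inhibitor and type designs were run on simulated counts, the inhibitor design at the depth of microglia and not of border macrophages.

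Depth ran from 6275898 to 18872816 UMIs a library, and shares carry exact Clopper-Pearson 95% intervals that cover counting error only. The kit libraries are paired because both kits were run on the same mouse, as the labels give. The deviations of the paired libraries from their kit means correlated at 0.265, 0.392 and 0.115 in mice 1, 2 and 3.

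The comparisons and thresholds were chosen before the data were examined. The 10 genes and the lists were chosen with earlier results of these data known. Genes were named by rule: all 10, the 3 called genes of a list with the smallest adjusted p, of which the report gives a selection, and the 2 genes nearest to each by correlation. Alternatives were the tool, no filter on low counts, a looser cell filter (at least 500 genes, at most 25% mitochondrial UMIs), a stricter gate with 2 more markers, each mouse left out, the V3.0 library of mouse 3 left out, the block, each kit alone and libraries in place of mice. Added after seeing the data were scaling to total UMIs and a border gate with at most 3 microglial markers.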

Additional observations from a re-analysis of the deposited data

Results flagged for a closer look

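In 40 groups of 6 libraries, the highest or lowest library was compared with its nearest neighbour, and 6 stood far from the rest (a gap above Dixon's 95% critical value). By chance about 1 in 20 groups would do so. The V3.0 library of mouse 3 gave 3 of the 6. It stood apart in Btg1 (below) and in its barcodes, with 21.541% of barcodes passing, where the others had 70.0% to 76.8%, and a median of 809 UMIs per barcode, where the others had 3031 to 3409. It held 901 of the microglia and 4 of the border macrophages.

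The 4 gene levels were in the small types. Zfp36l2 in border macrophages was lowest at 390.5823 CPM in the V3.1 library of mouse 2, from 25 UMIs in 15 cells. Btg1 in border macrophages was highest at 732.8356 CPM in the V3.0 library of mouse 3, from 16 UMIs in 4 cells. Btg1 in neutrophils was highest at 712.4938 CPM in the V3.1 library of mouse 2, from 215 UMIs in 49 cells. Ier5 in neutrophils was highest at 131.9431 CPM in the V3.0 library of mouse 1, from 38 UMIs in 50 cells. The cause of these was not tested.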

How the results depend on the processing

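Of 595 values recomputed for the 10 genes under the alternatives, 528 kept their direction and their side of the threshold or moved by less than the spread, 9 passed the threshold in addition, 16 no longer passed it, 38 moved and 4 turned direction. Among the 38 were 25 shares of cells with a UMI after thinning, and 25 uncalled values changed sign. The 4 that turned all did so with scaling to total UMIs, an alternative chosen after seeing the data. For neutrophils against microglia Zfp36 went to −0.033 and Btg2 to −0.64, and for border macrophages against neutrophils Zfp36 went to 0.32 and Btg2 to 0.089. The share of neutrophil UMIs in S100a8 and S100a9 enters that scaling by construction.

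The counts of called genes moved as follows. For the kit, 368 genes were called, 599 with the mouse as a replicate block and 169 to 421 with 1 mouse left out. The block changed the call of 1 of the 10 genes, Dusp1, and no other. For the inhibitors in microglia, 105 genes were called, with 16 by DESeq2, 63 with the loose cell filter, 22 with the stricter gate, 24 without the V3.0 library of mouse 3 and 46 with 6 libraries and the kit as a covariate. In border macrophages 2 were called, with 0 by DESeq2 (7 at an unadjusted p under 0.05, 50 by edgeR), 1 with the loose cell filter, 1 without the V3.0 library of mouse 3, 4 with total UMIs and 0 with the border gate of at most 3 microglial markers, also chosen after seeing the data. Leaving out mouse 1 or 3 gave inhibitor values with no test, and leaving out mouse 2 removes DNC-INHIB.

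For border macrophages against microglia 1470 were called, with 947 under the stricter gate, 957 from the V3.0 libraries alone, 889 from the V3.1 libraries alone and 794 to 1177 with 1 mouse left out. For neutrophils against microglia 5304 were called and 3372 from the V3.0 libraries alone, and for border macrophages against neutrophils 3753 and 2324. The cause was not tested.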

Other observations

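The 190 gated monocytes enter no comparison, and they were described after their values were seen. They numbered 41, 119 and 30 in mice 1, 2 and 3, with a median of 4801.5 UMIs. Dusp2 had a UMI in 43 of them, 22.6%, and stood at 58.6 CPM pooled. In CPM this was 41.6-fold above pooled microglia and at least 5.90-fold above pooled border macrophages, the latter against the level of 3 UMIs in them. Neutrophils had no Dusp2 UMI, and no fold is given against them because their CPM is lowered by S100a8 and S100a9. Dusp2 had 39.5, 72.4 and 39.5 CPM in the monocytes of mice 1, 2 and 3, from 11, 46 and 7 UMIs.

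The levels of the 10 genes in monocytes were read per mouse, with mouse 2 as the DNC-INHIB mouse. How many of all genes were highest in the monocytes of mouse 2 was not counted, so the order of the mice is no result about these genes. Dusp1 had 21.5, 231 and 39.5 CPM in mice 1, 2 and 3, with exact 95% Poisson intervals of 7.91 to 46.9, 195 to 272 and 15.9 to 81.4 that cover counting error only. Ier2 had 140.0, 407 and 288 CPM, Zfp36 had 86.2, 259.5 and 124 CPM, Zfp36l1 had 46.7, 219 and 107 CPM, and Btg1 had 503, 1120 and 785 CPM. Dusp6 had 133, 234 and 113 CPM, Zfp36l2 had 553, 829 and 610 CPM, Btg2 had 104, 354 and 305 CPM, and Ier5 had 140, 242 and 130 CPM. Fos had 35.9, 261 and 113 CPM. The cells also differed in their own markers. Ly6c2 had 901, 489 and 1225 CPM in mice 1, 2 and 3, Ace had 284, 459 and 333, and Spn had 205, 366 and 299. Plac8 was also lowest in mouse 2 and Chil3 also highest, while Ccr2, Vcan and Treml4 lay between those of mice 1 and 3. The part of this difference in makeup was not tested, and with 1 DNC-INHIB mouse there is no test of the inhibitors here. Dusp1 was seen in 35 of 64 monocytes with a Fos UMI (54.7%) and in 30 of 126 without (23.8%), at medians of 6935 and 4612.5 UMIs. Within mice 1, 2 and 3 these shares were 33.3%, 59.2% and 44.4% against 11.4%, 34.3% and 9.52%.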
